A study of Homo sapiens with 9 samples.

Results

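The HOX genes of the 4 human clusters were followed through 9 RNA libraries of 1, 10, 100 and 1000 cells. A gene model was a member when its name was HOXA, HOXB, HOXC or HOXD followed by a number, with antisense names left out, and 39 of the 26485 counted gene models met this rule. HOXA has 11 members at chr7:27092995-27200106, HOXB has 10 at chr17:48529445-48728749, HOXC has 9 at chr12:53938792-54056030 and HOXD has 9 at chr2:176092804-176190907 (hg38). The cells were HAP1, an adherent near-haploid human line that descends from a leukaemia line, with wild-type genotype and no treatment in any library. They were sorted by flow cytometry, their total RNA was isolated with NAxtra magnetic beads and treated with DNase, and libraries were made with a stranded SMART-Seq kit, a method that amplifies full-length cDNA from very small inputs. There were 3 libraries of 1 cell (single cells 1, 2 and 3) and 2 each of 10, 100 and 1000 cells. The replicates are described as biological, but their cultures of origin are not stated, so the p-values measure the spread between these libraries.

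HOX genes encode homeodomain transcription factors that give cells their position along the head-to-tail axis. Within a cluster the genes stand in the order in which they act: low-numbered genes pattern the hindbrain and neck, high-numbered genes the lower trunk, the limbs and the genital tract, and genes with the same number in different clusters are paralogues. In adult cells the set of active HOX genes is usually kept through divisions by Polycomb complexes, which hold clusters silent, and by MLL (KMT2) complexes, which keep them open. Blood progenitors and many leukaemias use HOXA genes around HOXA9.

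Each library held between 42842970 and 61645865 counts assigned to genes, and values are CPM, counts scaled to a common library size with the TMM method. A single count equalled 0.0161 to 0.0231 CPM, and SMART-Seq counts come from amplified cDNA without molecular identifiers, so they are not separate molecules. HOX genes took 0.0309%, 0.0390% and 0.0352% of the counts in single cells 1, 2 and 3, and 0.0315% to 0.0365% in the 6 libraries of 10, 100 and 1000 cells. Of 13360 genes at or above 1 CPM in 1000 cells, 79.6%, 79.7% and 73.1% lay within 2-fold of the mean of the 6 larger libraries in single cells 1, 2 and 3, so single cell 3 stood furthest from them. None of 10 blood lineage markers, PTPRC, CD34 and SPI1 among them, reached 1 CPM in 1000 cells and 4 had no count at all. In smaller inputs ITGAM had 2.80 and 1.63 CPM in single cells 1 and 2, and CD33 had 1.38 CPM in the first 10-cell library. No other marker of this list reached 1 CPM in any library. In 1000 cells COL1A1 and THY1 of 6 fibroblast markers and KRT8 and KRT18 of 6 epithelial markers reached 1 CPM. EPCAM, another epithelial marker, had 1.68 and 1.52 CPM in the 10-cell libraries, 0.338 CPM in 1000 cells and no count in the single cells.

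HOX genes were active in all 4 clusters, most completely in HOXA. At a mean of 1 CPM or more in the 1000-cell libraries, all 11 HOXA genes, 6 of 10 HOXB genes, 8 of 9 HOXC genes and 5 of 9 HOXD genes were expressed. Together these were 30 of 39 members (76.9%), compared with 50.4% of all gene models. A further 7 members had counts but stayed under that level, and 2, HOXB1 and HOXD1, had no count in any of the 9 libraries. Of the members under that level HOXB5, HOXB7 and HOXB8 lay around HOXB6, and HOXD9, HOXD10 and HOXD12 around HOXD11. HOXD10 was just under the level at 0.967 CPM in 1000 cells, with a mean of 1.37 CPM over the 6 libraries of 10, 100 and 1000 cells. HOXC12, between HOXC11 and HOXC13, was counted only in the 1000-cell libraries, with 2 and 1 counts.

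**Figure D1:**
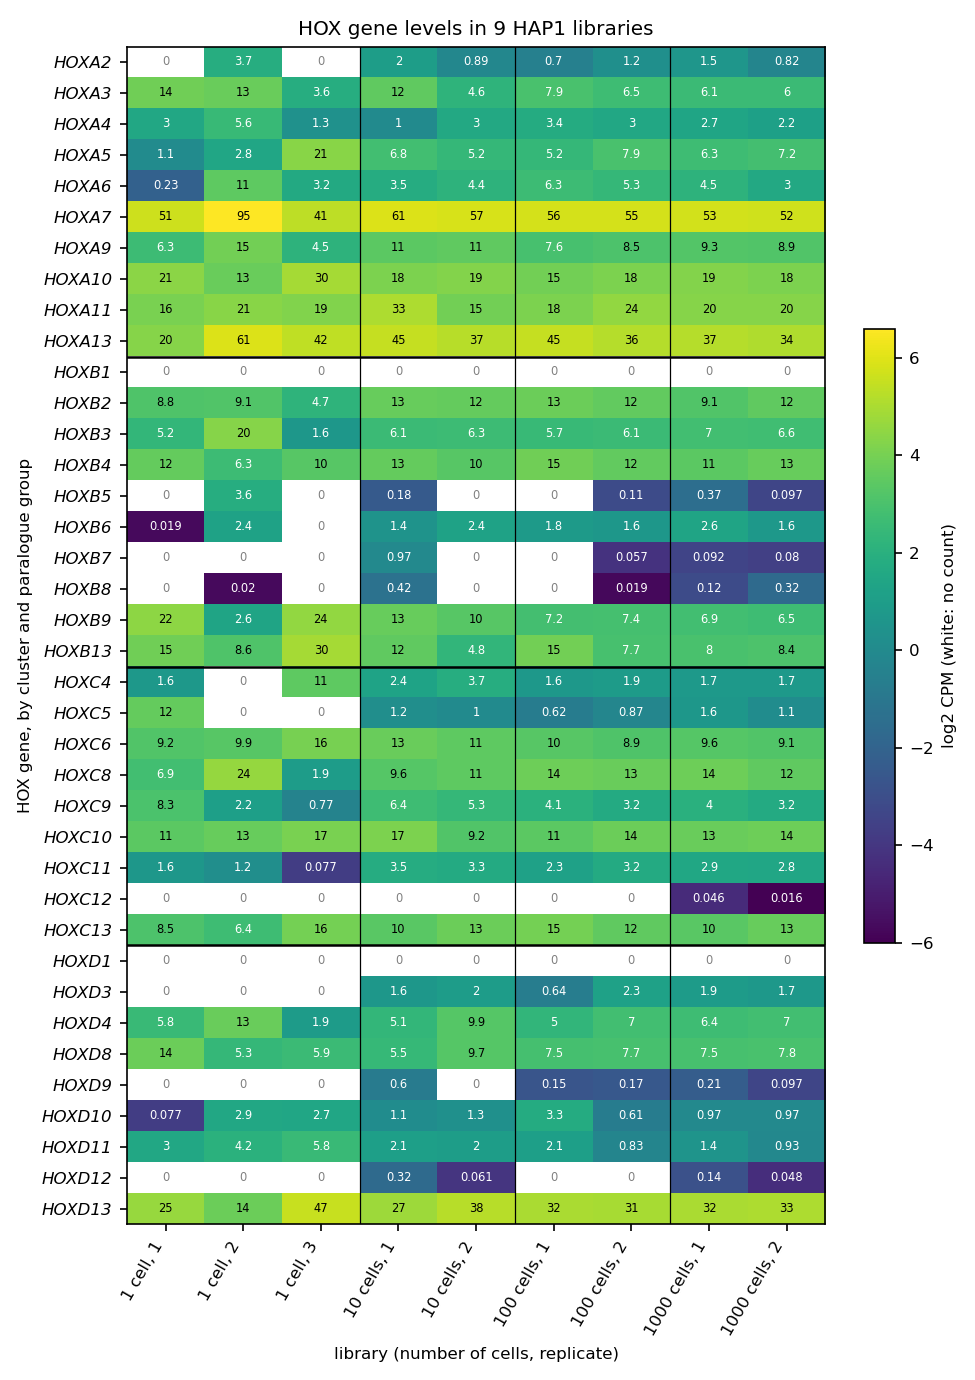
CPM of HOX genes (rows, by cluster and paralogue number) in the 9 libraries (columns, by number of cells and replicate). Colour gives log2 CPM, white marks no count, and the number in each field is the CPM. HOXA is filled throughout in the libraries of 10 cells and more, whereas HOXB1 and HOXD1 are white in every library and HOXD3 is white in the 3 single cells.

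Per kilobase of exon, which allows genes to be ordered, HOXA7 was highest with 26.1 CPM per kilobase in 1000 cells. HOXA13 followed with 14.2 and HOXD13 with 13.8 CPM per kilobase, a pair whose levels lay closer together than the spread between libraries, then HOXA11 with 7.40 and HOXC10 with 7.0 CPM per kilobase, another such pair. The median over the 39 members was 2.29 CPM per kilobase. The place of HOXA9 in this order depends on its length, because only 563 of its 2057 exon bases are free of the readthrough model HOXA10-HOXA9 and reads on shared bases were not counted. It had 4.44 CPM per kilobase over the whole length and 16.2 CPM per kilobase over its unshared bases, which would place it next after HOXA7.

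Promoter sequences from RefSeq (GRCh38.p14, 250 bases before to 50 after a gene's start) were found for 20 members, and in 16 of them the start lay within 150 bases of the counted gene model. They are shown for the 2 HOXA genes of highest level and for the window that HOXC4 and HOXC5 share. Reads on exon bases shared by HOXC4 and HOXC5 were not counted, so use of their shared start was not measured. Windows of both genes without a count are added, to set starts of genes with and without counts side by side. Each is written 5′ to 3′ on the gene's strand with every CG dinucleotide in capitals, the site of DNA methylation in human cells.
HOXA7 (chr7:27156626-27156925, minus strand): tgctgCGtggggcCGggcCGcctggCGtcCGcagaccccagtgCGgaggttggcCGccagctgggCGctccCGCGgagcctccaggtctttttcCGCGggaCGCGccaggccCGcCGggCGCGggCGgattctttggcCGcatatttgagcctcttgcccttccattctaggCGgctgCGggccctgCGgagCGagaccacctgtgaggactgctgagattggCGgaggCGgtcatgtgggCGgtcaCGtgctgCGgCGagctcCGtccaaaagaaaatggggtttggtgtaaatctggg
HOXA13 (chr7:27200042-27200341, minus strand): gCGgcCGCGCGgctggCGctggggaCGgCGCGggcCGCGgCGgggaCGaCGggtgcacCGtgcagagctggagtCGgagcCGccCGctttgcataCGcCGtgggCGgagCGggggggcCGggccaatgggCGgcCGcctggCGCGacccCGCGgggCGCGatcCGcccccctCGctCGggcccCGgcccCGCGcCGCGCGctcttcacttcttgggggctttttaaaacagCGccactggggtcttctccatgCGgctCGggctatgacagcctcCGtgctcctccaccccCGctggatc
HOXC4 and HOXC5 (chr12:54016638-54016937, plus strand): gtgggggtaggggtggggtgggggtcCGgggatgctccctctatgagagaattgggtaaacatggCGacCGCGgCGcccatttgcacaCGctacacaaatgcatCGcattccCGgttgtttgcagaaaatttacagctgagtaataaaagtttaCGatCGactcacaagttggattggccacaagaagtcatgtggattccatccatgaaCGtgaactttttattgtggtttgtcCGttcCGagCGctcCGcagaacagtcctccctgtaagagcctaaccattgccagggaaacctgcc
HOXB1 (chr17:48530962-48531261, minus strand): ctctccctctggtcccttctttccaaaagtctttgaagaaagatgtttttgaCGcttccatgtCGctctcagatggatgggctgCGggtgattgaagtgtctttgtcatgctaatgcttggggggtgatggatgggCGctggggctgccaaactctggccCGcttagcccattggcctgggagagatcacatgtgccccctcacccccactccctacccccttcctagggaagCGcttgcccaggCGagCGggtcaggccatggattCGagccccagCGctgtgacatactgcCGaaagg
HOXD1 (chr2:176188418-176188717, plus strand): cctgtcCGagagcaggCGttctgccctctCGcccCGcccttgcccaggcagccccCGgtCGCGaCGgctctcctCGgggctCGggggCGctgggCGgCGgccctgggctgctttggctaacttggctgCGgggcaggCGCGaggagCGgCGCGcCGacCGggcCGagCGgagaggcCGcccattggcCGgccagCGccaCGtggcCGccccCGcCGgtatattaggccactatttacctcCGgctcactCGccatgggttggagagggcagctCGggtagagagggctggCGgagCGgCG
These windows hold 31 CG dinucleotides in HOXA7, 44 in HOXA13, 15 in the shared HOXC4 and HOXC5 window, 11 in HOXB1 and 36 in HOXD1, so the silent members differed widely. The 16 members have 15 distinct windows, in which the number was 11 to 44 with a median of 24, compared with a median of 14 over all 34943 distinct windows of the same length. The median ratio of observed to expected CG dinucleotides was 0.871 in the 15 windows and 0.577 in all windows. The 11 windows of genes at 1 CPM or more had a median of 27 CG dinucleotides, and the 4 of HOXB1, HOXD1, HOXD10 and HOXD12, which were under that level, had 21. The TATA box letters TATAAA, read on both strands, were in 2 of the 15 windows, HOXA9 and HOXD13 (13.3%, compared with 11.6% of all windows). The CDX motif letters TTTATG were in HOXA9 and HOXD8 (13.3%, compared with 10.6%), and the retinoic acid receptor half-site AGGTCA was in none, compared with 13.8% of all windows. These are matches of letters, and no binding was measured.

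In the HOXA cluster, HOXA7, which acts in the trunk and is co-expressed with HOXA9 in leukaemias, had 50.5, 95.4 and 40.8 CPM in single cells 1, 2 and 3. It had 60.8 and 56.6 CPM with 10 cells, 56.1 and 55.1 CPM with 100 cells and 53.4 and 51.7 CPM with 1000 cells. Single cell 2 thus lay above and the other single cells below all 6 larger libraries, which themselves differed by little (55.6 ± 3.12 CPM, SD, n = 6). HOXA13, which shapes the digits and the genital tract, had 20.0, 60.7 and 41.7 CPM in the single cells, compared with 39.1 ± 4.58 CPM (34.2 to 45.1) in the 6 libraries. Single cell 1 was low and single cell 2 high, with single cell 3 inside the range.

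HOXA9, a factor of blood stem cells and leukaemia, had 6.31, 15.3 and 4.46 CPM in the single cells and 9.43 ± 1.43 CPM in the 6 libraries. HOXA10, needed in the uterus, had 21.3, 13.4 and 30.0 CPM in the single cells and 17.7 ± 1.54 CPM in the 6 libraries. In these neighbours the single cells ranked in opposite order: single cell 2 was highest for HOXA9 and lowest for HOXA10, and single cell 3 the reverse. HOXA11, which acts in the forearm, kidney and uterus, was steadier, with 16.5, 20.8 and 18.6 CPM in the single cells and 14.9 to 32.9 CPM in the 6 libraries, whose highest value came from 1 of the 10-cell libraries.

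Of the head-side HOXA genes, HOXA5, which acts in the lung, had 1.06, 2.78 and 20.8 CPM in single cells 1, 2 and 3 and 6.44 ± 1.11 CPM (5.17 to 7.93) in the 6 libraries. HOXA6 had 0.232, 11.1 and 3.20 CPM in the single cells and 4.50 ± 1.17 CPM in the 6 libraries. Between these neighbours the order of the cells again changed, since single cell 3 was highest for HOXA5 and single cell 2 for HOXA6, while single cell 1 was low for both. HOXA2, which patterns the branchial arches, was counted in single cell 2 alone (0, 3.66 and 0 CPM), compared with 0.697 to 2.03 CPM in the 6 libraries. HOXA3, needed for the thymus and parathyroid, had 14.4, 13.4 and 3.56 CPM in the single cells and 4.57 to 11.5 CPM in the 6 libraries, and HOXA4 had 2.97, 5.64 and 1.30 CPM in the single cells and 1.01 to 3.39 CPM in the 6 libraries.

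In HOXB, where HOXB1 had no count, the expressed genes were HOXB2, HOXB3, HOXB4, HOXB6, HOXB9 and HOXB13. HOXB2, a hindbrain gene, had 8.80, 9.05 and 4.66 CPM in the single cells, below each of the 6 larger libraries, at 9.08 to 13.5 CPM, by a narrow margin in single cell 2. HOXB3 had 5.16, 20.0 and 1.57 CPM in the single cells and 6.30 ± 0.434 CPM in the 6 libraries, among which it varied little. HOXB4, which expands blood stem cells when overexpressed, had 12.1, 6.33 and 10.1 CPM in the single cells and 10.2 to 14.5 CPM in the 6 libraries. Of the genes between HOXB4 and HOXB9, HOXB5 was counted in single cell 2 alone, with 3.63 CPM, which was higher than the 0 to 0.369 CPM of the 6 libraries. HOXB6 had 0.0193, 2.41 and 0 CPM in the single cells and 1.38 to 2.56 CPM in the 6 libraries, so that single cell 2 alone carried both genes at a level like or above that of 1000 cells. HOXB7 was in no single cell, and HOXB8 in single cell 2 with a single count.

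At the tail end of HOXB the order of the cells was the reverse of that for HOXB3. HOXB9 had 21.7, 2.61 and 23.7 CPM in single cells 1, 2 and 3 and 6.53 to 12.6 CPM in the 6 libraries. HOXB13, best known as a prostate transcription factor, had 14.6, 8.62 and 30.3 CPM in the single cells and 4.84 to 15.3 CPM in the 6 libraries. Single cell 3 was the highest library for both genes.

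In HOXC, the neighbours HOXC4 and HOXC5 were highest in different single cells. HOXC5 had 12.5 CPM in single cell 1 and no count in single cells 2 and 3, compared with 1.06 ± 0.331 CPM (0.620 to 1.61) in the 6 libraries, so single cell 1 stood at 11.8 times their mean. HOXC4 had 1.62, 0 and 10.9 CPM in the single cells and 1.65 to 3.66 CPM in the 6 libraries, with single cell 3 at 5.02 times their mean. HOXC6 varied far less, with 9.17, 9.90 and 16.4 CPM in the single cells and 8.87 to 13.3 CPM in the 6 libraries. The 3 models begin at the same position, and of their exon bases 1783 of 2346 in HOXC4, 1612 of 2175 in HOXC5 and 1681 of 2244 in HOXC6 are free of the others. Reads on the shared bases were not counted, so these values describe the rest of each transcript.

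HOXC8, which patterns the thorax, had 6.89, 24.0 and 1.94 CPM in the single cells and 12.4 ± 1.84 CPM in the 6 libraries, with every single cell outside their range. HOXC9 had 8.28, 2.19 and 0.766 CPM in the single cells and 3.20 to 6.43 CPM in the 6 libraries. HOXC11 had 1.58, 1.16 and 0.0766 CPM in the single cells, all below the 2.32 to 3.53 CPM of the 6 libraries. By contrast HOXC10 (10.6, 12.8 and 16.8 CPM in the single cells and 13.1 ± 2.74 CPM in the 6 libraries) and HOXC13, a hair and nail gene (8.48, 6.45 and 15.8 CPM in the single cells and 12.3 ± 1.95 CPM in the 6 libraries), were present in each cell at 0.525 to 1.29 times the mean of the 6.

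In HOXD the expressed genes were HOXD3, HOXD4, HOXD8, HOXD11 and HOXD13. HOXD13, which forms the digits and is mutated in synpolydactyly, had 25.0, 13.5 and 47.1 CPM in the single cells and 32.2 ± 3.47 CPM (27.3 to 38.1) in the 6 libraries, so every single cell lay outside their range and single cell 3 above it. HOXD11, which acts in the forearm and kidney, had 2.95, 4.19 and 5.84 CPM in the single cells, all above the 0.834 to 2.14 CPM of the 6 libraries. HOXD10 had 0.0772, 2.92 and 2.70 CPM in the single cells and 0.607 to 3.33 CPM in the 6 libraries. HOXD8 had 13.6, 5.31 and 5.94 CPM and HOXD4 had 5.75, 13.2 and 1.88 CPM in the single cells, compared with 5.47 to 9.71 CPM for HOXD8 and 4.98 to 9.85 CPM for HOXD4 in the 6 libraries.

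HOXD3, which patterns the neck vertebrae, was the member that separated the single cells from all other libraries most clearly. It had no count in any of the 3 single cells, compared with 1.57 and 1.97 CPM with 10 cells, 0.639 and 2.31 CPM with 100 cells and 1.87 and 1.66 CPM with 1000 cells. In these larger libraries fewer cells with the transcript and less RNA per cell cannot be told apart. Against a floor of 3 counts over the 3 single cells together, HOXD3 was at least 86.3-fold lower in single cells than the mean of the 6 libraries (1.67 ± 0.569 CPM), a bound that covers counting error only.

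**Figure D2:**
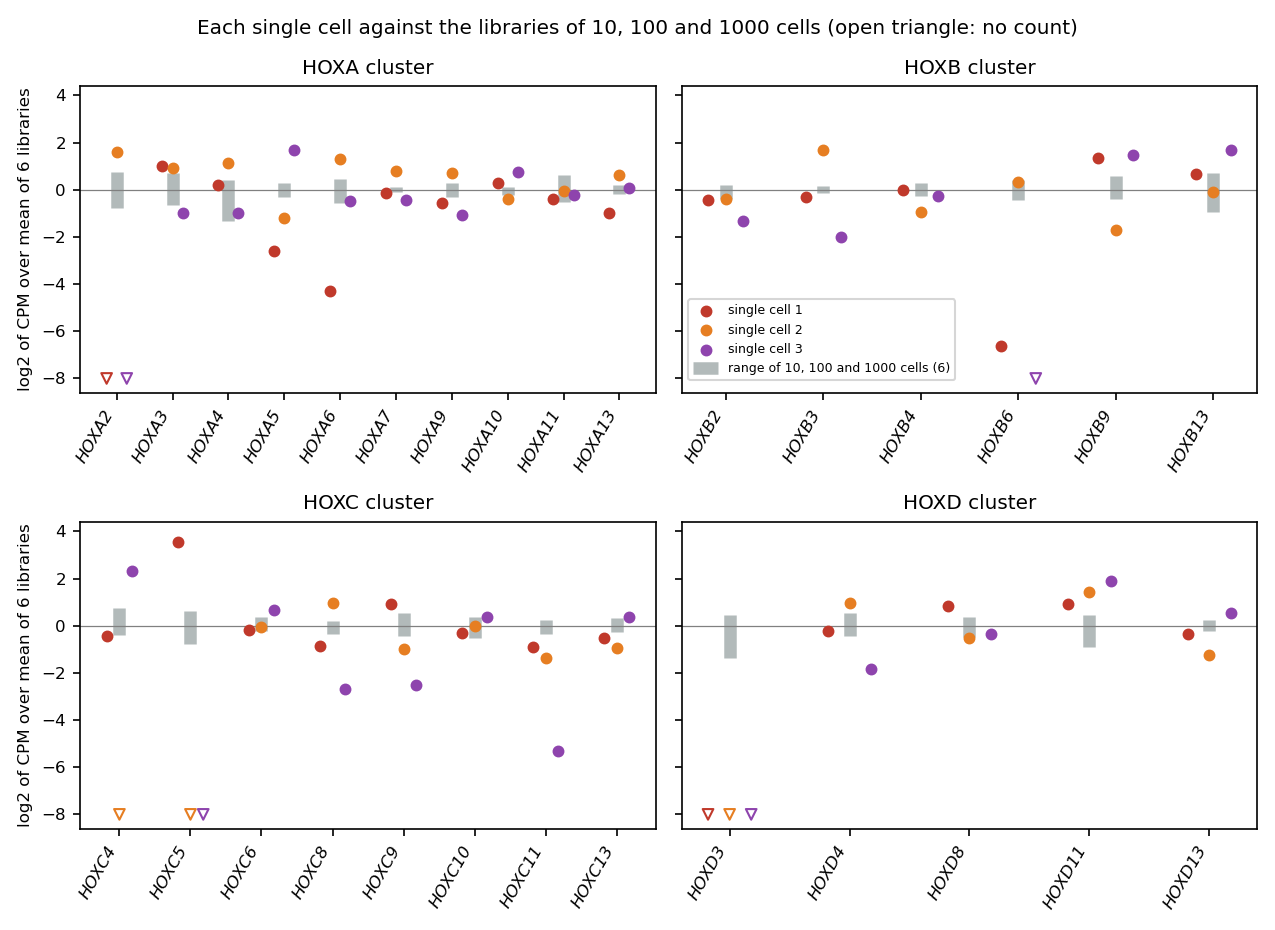
Log2 of the CPM in each single cell (coloured points) over the mean CPM of the 6 libraries of 10, 100 and 1000 cells, for HOX genes at 1 CPM or more in 1000 cells, by cluster. Grey bars span the 6 libraries and open triangles at the bottom mark no count. HOXC5 in single cell 1 is the highest point, at 11.8 times the mean, and the points of a cell lie on both sides of 0 in each cluster.

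Fewer HOX genes were detected in a single cell than in any larger library. At least 1 count was found for 29, 30 and 27 of the 39 members in single cells 1, 2 and 3, for 36 and 32 with 10 cells, 32 and 35 with 100 cells, and 37 in both libraries of 1000 cells. All gene models showed the same order (52.7% to 54.7% in single cells and 61.5% to 70.4% in the others). Among the 30 members at 1 CPM or more in 1000 cells, HOXA2 and HOXD3 were missing in single cell 1. HOXC4, HOXC5 and HOXD3 were missing in single cell 2, and HOXA2, HOXB6, HOXC5 and HOXD3 in single cell 3. All but HOXB6, at 2.10 CPM, were at 1 to 2 CPM in 1000 cells, where 2, 3 and 3 of 5 members had no count in single cells 1, 2 and 3 (40.0%, 60.0% and 60.0%), compared with 22.7%, 30.4% and 34.5% of 899 genes of that level. At 1 to 10 CPM it was 2, 3 and 4 of 20 members, compared with 8.46%, 12.1% and 15.2% of 3629 genes. A count of 0 in a single cell allows up to 0.0575 to 0.0588 CPM (3 counts, counting error only). The 10 members at 10 CPM or more were counted in every single cell.

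Whether single cells differ from larger inputs was tested over all genes with edgeR's quasi-likelihood test, single cells (n = 3) against 10, 100 and 1000 cells together (n = 6). Of the 39 members 31 had enough counts to be tested, and 8 did not (HOXB1, HOXB5, HOXB7, HOXB8, HOXC12, HOXD1, HOXD9 and HOXD12). HOXD3 was lower in single cells (edgeR, Benjamini-Hochberg adjusted p = 0.0179) and no member was higher. The share of all 15603 tested genes that passed was 6.67%. With an unadjusted p under 0.05 there were 3 members, HOXD3, HOXD11 and HOXB13 (9.68%), compared with 24.5% of all tested genes. The log2 fold change was positive in 19 and negative in 12 of the 31 members, with a median of 0.06, compared with 0.01 for all genes.

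HOXD11 had a log2 fold change of 1.45 (SE 0.57, edgeR adjusted p = 0.142) and was higher in 3 of 3 single cells than in any larger library. DESeq2 gave it an adjusted p of 0.0294 and called HOXD3 and HOXD11, next to 17.3% of all genes. HOXB13 had a log2 fold change of 0.94 (SE 0.42, edgeR adjusted p = 0.190) and lay above the range of the 6 libraries in 1 of 3 single cells. The groups did not overlap in 5 members: HOXD11 was higher in every single cell, and 4 were lower in every single cell, HOXB2, HOXC11 and HOXD3 among them. These were 16.1% of the tested members, next to 15.0% of all tested genes. HOXD3 lost its call without the second 100-cell library or either 1000-cell library (edgeR adjusted p = 0.0607, 0.0620 and 0.0634), fits in which no gene at all passed, and with all 4 cell numbers in 1 fit and a common spread (edgeR adjusted p = 0.110). It kept its call without any 1 of the other 6 libraries (edgeR adjusted p 0.00418 to 0.0382). Single cells decided other calls. Without single cell 1, HOXC5 was called lower. Without single cell 2, HOXB9 and HOXB13 were called higher and HOXA2, HOXB6 and HOXC8 lower. Without single cell 3, HOXA5 was called lower, each beside HOXD3. Calls rose over all genes in these fits, with 2869 of 16101, 3188 of 16106 and 2406 of 16081 tested genes. The main fit called 1041 of 15603 genes, so these HOX calls do not set the members apart.

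HOX genes lay both above and below other genes of like level in how much they varied from cell to cell. On the log2 scale the SD among the 3 single cells was above the median of all genes of like level for 17 of the 31 tested members. It was above the upper quartile for 11 members, HOXA2, HOXA5, HOXA6, HOXA7, HOXA13, HOXB3, HOXB9, HOXC4, HOXC5, HOXC8 and HOXD13. For 7 it was under the lower quartile: HOXA4, HOXA11, HOXB2, HOXC6, HOXC10, HOXD3 (at 0 in each cell) and HOXD11. Genes in general lie on both sides of these limits by definition, so the counts alone do not set HOX genes apart. Among the 13 members at 10 to 100 CPM the median SD was 0.64 in single cells and 0.22 in the 6 larger libraries, where that of all 7535 genes was 0.48 in single cells and 0.15 in the larger libraries. At 1 to 10 CPM the 18 members had a median SD of 1.95 and all genes 1.83 in single cells. Of the 30 expressed members, 22, 18 and 13 lay within 2-fold of the mean of the larger libraries in single cells 1, 2 and 3 (73.3%, 60.0% and 43.3%), lower in each cell than the share of all expressed genes given above. These sets differ in level, since 3 of the 30 members were at 20 CPM or more in 1000 cells, compared with 7873 of the 13360 genes. The SD of all genes was smaller at higher levels, so these shares do not compare genes of like level. Within the CPM classes above, the levels of HOX genes and all genes also differ. The part of amplification in the spread among single cells was not tested.

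**Figure D3:**
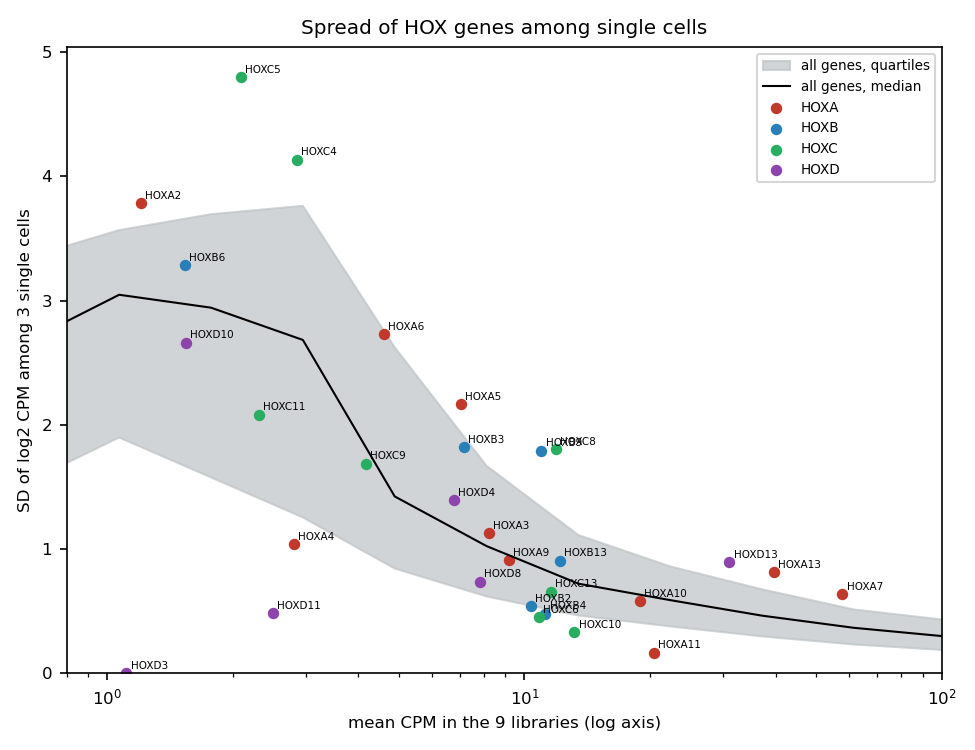
SD of log2 CPM among the 3 single cells against the mean CPM of the 9 libraries (log axis) for tested HOX genes, coloured by cluster. The black line is the median and the grey band the range between the quartiles of all tested genes of like level. HOXA7, HOXA13 and HOXD13 at the right lie above the band, HOXC5 and HOXC4 are the highest points, and HOXD3 lies at 0 because no single cell had a count.

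Summed over a cluster, the single cells lay within the range of the 6 larger libraries for HOXC, and mostly outside it for the other clusters. HOXC added up to 59.2, 56.5 and 62.7 CPM in single cells 1, 2 and 3 and 58.7 ± 2.76 CPM in the 6 libraries. All of them were within the range of the 6 (56.3 to 63.9 CPM), although 6, 6 and 7 of its 8 expressed genes lay outside their own ranges. Most genes lay outside the range of the 6 in each single cell. The share was 72.8%, 71.8% and 77.2% of all 13360 expressed genes and 76.7%, 83.3% and 80.0% of the 30 expressed members. HOXA added up to 136, 246 and 165 CPM in the single cells and 170 ± 14.1 CPM (157 to 197) in the 6 libraries. HOXB added up to 62.4, 52.6 and 70.4 CPM in the single cells and 50.3 ± 6.17 CPM (44.8 to 58.4) in the 6 libraries, and HOXD to 47.4, 39.1 and 63.4 CPM in the single cells and 51.5 ± 6.28 CPM (43.6 to 62.9) in the 6 libraries. Single cell 2 was thus high for HOXA and low for HOXD, and single cell 3 the highest for HOXB and HOXD.

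The division of each cluster between head-side and tail-side genes differed from cell to cell. The paralogue groups were joined as 1 to 3, 4 to 8 and 9 to 13, a choice made after the values had been seen. In single cell 3, groups 9 to 13 held 57.6% of HOXA counts, 76.8% of HOXB counts and 87.7% of HOXD counts, each above the 6 larger libraries (50.3% to 53.9%, 31.1% to 41.5% and 65.8% to 74.3%), but 53.3% of HOXC counts, within the larger libraries. In single cell 2 the same groups held 44.8%, 21.3% and 52.8% of HOXA, HOXB and HOXD counts, each below those ranges, and in HOXC 40.0%, compared with 52.9% to 58.4%. Single cell 1 was mixed, at 47.0% in HOXA, 49.0% in HOXC and 59.1% in HOXD, below the larger libraries, and 58.2% in HOXB, above them. Of groups 1 to 3, HOXA2, HOXA3, HOXB2, HOXB3 and HOXD3 were all below all 6 libraries in single cell 3, at 0 to 0.501 times their mean. In single cell 2, HOXA2, HOXA3 and HOXB3 lay above all larger libraries, and HOXB2 and HOXD3 below them. Of all 13360 expressed genes, 71.8% in single cell 2 and 77.2% in single cell 3 lay above or below all 6 libraries. Summed over the clusters, groups 1 to 3 had 31.3, 49.8 and 10.0 CPM in single cells 1, 2 and 3 and 31.0 to 39.1 CPM in the 6 libraries, and groups 9 to 13 had 157, 165 and 238 CPM in the single cells and 163 to 199 CPM in the 6 libraries. The 4 genes of paralogue group 13 together had 68.1, 89.3 and 135 CPM in the single cells and 92.9 ± 7.86 CPM in the 6 libraries, with single cell 3 above and single cell 1 below their range.

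**Figure D4:**
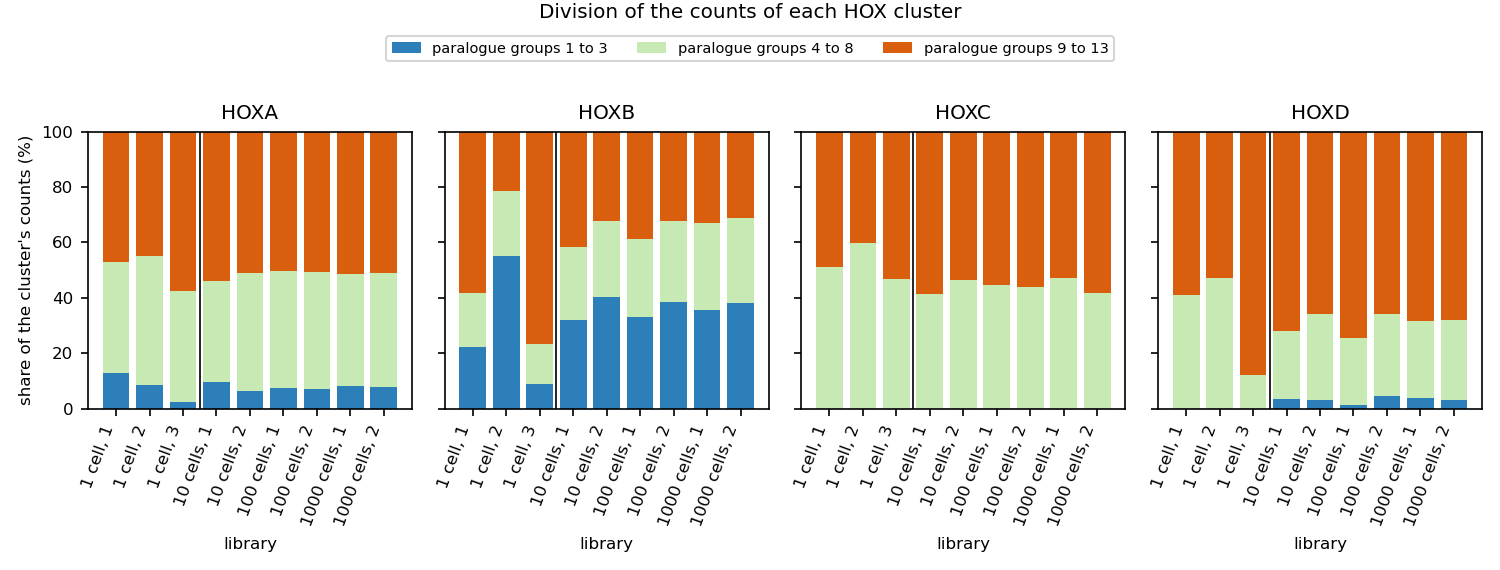
Share of each cluster's counts (%) in paralogue groups 1 to 3, 4 to 8 and 9 to 13, stacked to 100%, in each library. The vertical line separates the 3 single cells from the larger libraries. In HOXB groups 9 to 13 hold 21.3% of the counts in single cell 2, 76.8% in single cell 3 and 31.1% to 41.5% in the 6 larger libraries.

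Libraries of 10 cells were compared with larger inputs in the same way. In edgeR's test of 10 cells (n = 2) against 100 and 1000 cells (n = 4), none of 33 tested members was called, where 0.0188% of 15926 tested genes were, so the test called almost nothing at this size. The median size of the log2 fold change was 0.25 in the 33 members and 0.16 in all tested genes. With an unadjusted p under 0.05 there were 5 members (HOXA9, HOXB9, HOXC4, HOXC6 and HOXC9, 15.2%), compared with 13.4% of all tested genes. HOXB9 had 12.6 and 10.2 CPM with 10 cells, 7.21 and 7.36 CPM with 100 cells and 6.89 and 6.53 CPM with 1000 cells, so both 10-cell libraries were higher than all others (log2 fold change 0.71, SE 0.17, edgeR adjusted p = 0.222). DESeq2 called HOXB9 alone among the members (adjusted p = 0.0394), next to 1.67% of all genes. HOXC9 had 6.43 and 5.30 CPM with 10 cells and 3.20 to 4.15 CPM with more cells (log2 fold change 0.69, SE 0.24, edgeR adjusted p = 0.284). The groups did not overlap in 8 members, 7 higher with 10 cells (HOXA7, HOXA9, HOXB9, HOXC4, HOXC6, HOXC9 and HOXC11) and HOXC8 lower, which is 24.2% of members, next to 23.1% of all tested genes.

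Non-coding RNAs of the clusters were also counted. Of 25 listed long non-coding RNAs and microRNA hosts 22 were among the gene models, 9 of them at 1 CPM or more in 1000 cells, and of 13 tested none was called by edgeR (4 at an unadjusted p under 0.05), while DESeq2 called HOXC13-AS and HOXA-AS3. Over all tested genes 24.5% had an unadjusted p under 0.05 and DESeq2 called 17.3%. HOXC13-AS had 4.50, 5.19 and 4.52 CPM in the single cells, all above the 1.15 to 2.05 CPM of the 6 libraries. HOTTIP, transcribed beside HOXA13, had 20.7, 12.5 and 7.09 CPM in the single cells and 4.53 to 9.55 CPM in the 6 libraries, so it was highest in the cell with the lowest HOXA13. HOTAIR, from the HOXC cluster, had 1.95, 5.62 and 0.690 CPM in the single cells and 3.11 to 6.18 CPM in the 6 libraries. HOTAIRM1, from the head end of HOXA, had 11.3, 3.90 and 12.6 CPM in the single cells and 5.21 to 6.97 CPM in the 6 libraries, so that single cell 2 was low and the other single cells high. HOXA11-AS had 5.12, 19.9 and 7.09 CPM in the single cells and 4.80 to 9.22 CPM in the 6 libraries. In HOXD, the model of the microRNA gene MIR10B, which lies beside HOXD4, had 1.26, 3.31 and 0.0192 CPM in the single cells, where HOXD4 was also highest in single cell 2 and lowest in single cell 3. The libraries were not made for mature microRNAs, and these counts come from longer transcripts or fragments over the model.

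Genes next to the clusters, such as CBX5 beyond HOXC with 823, 580 and 517 CPM in the single cells and 685 ± 11.0 CPM in the 6 libraries, had no call by edgeR or DESeq2 among 12 tested (1 at an unadjusted p under 0.05). Of the cofactors and regulators of HOX genes, all 11 TALE homeodomain cofactors (MEIS2 among the highest), all 28 Polycomb genes and all 14 genes of the MLL and H3K27 demethylase list were at 1 CPM or more in 1000 cells. None of the 11 cofactors was called by edgeR (4 at an unadjusted p under 0.05, and MEIS2 called lower by DESeq2). In the Polycomb list edgeR called 2 of 28 genes and in the MLL list 1 of 14, all higher in single cells, next to 6.67% of all tested genes. With an unadjusted p under 0.05 there were 5 Polycomb genes and 6 MLL list genes, next to 24.5% of all tested genes. DESeq2, which called 17.3% of all genes, called PHC3, PCGF3 and JARID2 in the Polycomb list and KMT2D, KDM6B, DOT1L, KMT2B, ASH2L and WDR5 in the MLL list. PHC3, a subunit of Polycomb repressive complex 1, had 144, 226 and 193 CPM in the single cells and 119 to 135 CPM in the 6 libraries (log2 fold change 0.59, SE 0.12, edgeR adjusted p = 0.0225). JARID2, which recruits Polycomb repressive complex 2, had 94.8, 46.6 and 101 CPM in the single cells and 36.1 to 54.5 CPM in the 6 libraries (log2 fold change 0.88, SE 0.22, edgeR adjusted p = 0.0391). In the MLL list DOT1L, the H3K79 methyltransferase, was higher in each single cell, with 189, 175 and 191 CPM in the single cells and 132 to 157 CPM in the 6 libraries (log2 fold change 0.37, SE 0.08, edgeR adjusted p = 0.0289). None of the 3 was called without the second 100-cell library or either 1000-cell library (edgeR adjusted p 0.0655 to 0.0921), or with a common spread over the 4 cell numbers (edgeR adjusted p 0.110 to 0.114). DOT1L also lost its call without the first 100-cell library (edgeR adjusted p = 0.0508), and JARID2 without single cell 1 or 3, the second 10-cell or the first 100-cell library (edgeR adjusted p 0.0543 to 0.0756), and with the replicate number as a block (log2 fold change 0.65, edgeR adjusted p = 0.0950). That block also takes single cell 3 out of the comparison, since no larger library carries its number. Of the 10 CDX and retinoic acid genes, which act upstream of HOX genes in embryos, CDX1 and CDX4 had no count, CDX2 had 0.927, 6.09 and 8.56 CPM in the single cells and 1.22 to 4.71 CPM in the 6 libraries, and none of 8 tested was called by edgeR or DESeq2 or had an unadjusted p under 0.05.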

How the data were processed

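RNA of 9 HAP1 libraries was measured. The tools named in the submitters' processing notes, with which the authors made the files, are FastQC 0.11.9 for quality, Trim Galore 0.6.7 for trimming, HISAT2 2.2.1 for alignment to hg38, SAMtools 1.16.1 for sorting and featureCounts (Subread 2.0.6) for counting. The deposited values are whole read counts per gene model, not normalized and not pooled. The file headers give the reverse strand setting, reads rather than pairs as the unit, and no option to keep reads that map to several places or to several models. The annotation release is not given in the sources used here. Since the reads of overlapping models on 1 strand were dropped, HOXA9, HOXA10, HOXC4, HOXC5 and HOXC6 are undercounted.

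Counts were analysed in R 4.3.3 with edgeR 4.0.16 and limma 3.58.1. Library sizes were scaled with TMM, genes were kept with filterByExpr, and the 2 comparisons were made with the quasi-likelihood test and Benjamini-Hochberg adjustment over all tested genes at 0.05. Log2 CPM used a prior count of 2. DESeq2 1.42.0 served as an alternative. Further alternatives were other size factors, no filter, thinned counts, a common spread over the 4 cell numbers, the replicate number as a block, and each library left out in turn. Scripts were tested on simulated data. Named were the members with at least 10 counts in a library, here 36, and for context lists the called genes and up to 4 of the highest level. MIR10B, the CDX genes and the cell type markers fall outside this rule and were named in addition. Values of 1 member and 1 cofactor are not reported here, and the member is left out of the plots of single genes but kept in all counts and sums. The members, the lists and the joining of paralogue groups were chosen with earlier results of these data known. Replicate pairs within each cell number differed by more than counting noise, so no library was counted as a repeat of another.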

Additional observations from a re-analysis of the deposited data

Results flagged for a closer look

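Each of the 36 members with at least 10 counts in a library was checked for a lone high or low value among the 6 libraries of 10, 100 and 1000 cells, with Dixon's limit for 6 values. Chance flags about 1 in 20 such groups when values are normally distributed, and 3 members were found. Low counts with 0 among the 6 libraries, as in HOXB7 and HOXD9, are not so distributed. The share of all genes that this check would flag was not computed. HOXB7 had 0.969 CPM in the first 10-cell library, where the next highest of the 6 had 0.0922 CPM, and it had no count in any single cell. HOXD9 had 0.600 CPM in the same 10-cell library, with 0.207 CPM as the next highest, and again no count in any single cell. HOXD10 had 3.33 CPM in the first 100-cell library, with 1.26 CPM as the next highest, a value near the 2.92 and 2.70 CPM of single cells 2 and 3.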

How the results depend on the processing

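For single cells against the larger libraries, DESeq2 called 1 HOX gene higher (HOXD11, log2 fold change 1.47) and 2595 of all genes. Without a filter on low counts 682 genes were called. With all 4 cell numbers in 1 fit and a common spread, 0 HOX genes were lower and 0 genes were called, and HOXD3 had a fitted log2 fold change of -9.40 with an adjusted p of 0.110. For 10 cells against more cells, DESeq2 called 1 HOX gene higher (HOXB9, log2 fold change 0.71) and 266 genes, 7 were called without the filter and 0 with the common spread. At a level of 2 CPM, 3 HOXD genes counted as expressed. Leaving out each library in turn gave 0 to 2 HOX genes higher and 0 to 4 lower in single cells and 0 to 3188 genes in all, and for 10 cells 0 to 162 genes. The fitted log2 fold change of HOXD3 then ran from -9.57 to -9.29 and that of HOXB13 from 0.32 to 1.27. The replicate numbers did not pair the libraries (12 same-numbered pairs, correlations of deviations -0.04 to 0.02). With 2 libraries per group the deviations mirror each other. Among the larger libraries the pairs of replicate 1 and of replicate 2 therefore give the same value and are not separate checks. With the replicate number as a block, 2 HOX genes were lower (HOXA5 and HOXD3) and 2077 genes were called in single cells, and no other HOX call changed. No larger library carries the number of single cell 3, so the block takes that cell out of the comparison. It is therefore not separate from leaving single cell 3 out, which gave the same HOX calls and a log2 fold change of 0.32 for HOXB13 in both fits. Leaving out the members that share exon bases moved the tail-side shares of HOXA and HOXC, for example to 94.5% of HOXC counts in single cell 3. The HOXC shares therefore rest on genes counted in part. Taking paralogue groups 10 to 13 for the tail side moved the shares of HOXA, of HOXB and, in single cells 1 and 2, of HOXC. For HOXB they fell from 58.2%, 21.3% and 76.8% to 23.4%, 16.4% and 43.1% in single cells 1, 2 and 3. Shares of the larger libraries are not given for that grouping, so the HOXB positions described above hold for groups 9 to 13 only. Those 2 alternatives and the unshared exon length were chosen after seeing the data. The causes were not tested. Members under 1 CPM rest on few counts, with exceptions. HOXD10 had 149 and 141 counts in single cells 2 and 3, and HOXB5 had 185 counts in single cell 2. Where a member under 1 CPM had no count in a single cell, its absence was not distinguishable from low capture. The same holds for HOXD3 and the other members at 1 CPM or more that had no count in a single cell.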
